A study of Mus musculus with 6 samples.

Results

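Grhl3 binding in adult mouse epidermis was compared between 2 injuries, depilation, which removes the hair and is a physical injury, and imiquimod, a Toll-like receptor agonist that inflames the skin. The regions are the peaks of 2 deposited lists from chromatin immunoprecipitation with sequencing (ChIP-seq), 1 library for each injury. Peaks on autosomes were taken, outside 77.71 to 77.87 Mb of chromosome 2 and 2.99 to 3.04 Mb of chromosome 9, and depilation peaks with a score above 249.45, the highest score of the imiquimod list, were left out. This kept 4690 of 4820 depilation peaks and 7888 of 7974 imiquimod peaks, together 12578 of the 34098 peaks in the 4 lists of the series. A peak was called shared when it overlapped a peak of the other injury by at least 1 bp, and unshared otherwise.

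Both adult libraries came from epidermis taken off the dermis with dispase and were precipitated with the same custom antibody against Grhl3. The depilation sample is from day 4. For the imiquimod sample the labels name neither dose nor time, and for both they name no strain, genotype, sex or number of pooled animals, and Grhl3 binding in untreated adult epidermis was not analysed here. The other libraries are 2 Grhl3 replicates from E16.5 embryos, made from whole skin, which served here as an independent readout, and 2 inputs without antibody, one embryonic and one adult, whose signal was not analysed here. With 1 library per injury, no difference between the injuries could be tested. Intervals below are exact (Clopper-Pearson) 95% binomial intervals, which cover counting error alone and treat neighbouring peaks as independent.

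Grhl3 belongs to the grainyhead-like family of transcription factors, which bind DNA directly and act in surface epithelia. In skin it is known for its part in the formation of the epidermal barrier in the embryo and in wound closure. The series asks about its role in the repair of that barrier after physical and after immune injury, as its title says. A ChIP-seq peak marks a stretch of genome where the antibody recovered more DNA than the peak caller's background, and the score of a peak is the authors' own value for it. Peaks were not assigned to genes here, because positions are on build mm9 and no annotation of that build was used.

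A minority of the peaks of either injury was found in the other. Of the depilation peaks, 1255 were shared, or 26.8% (interval 25.5 to 28.1), against 26.2% of the whole deposited list before the selection. Of the imiquimod peaks, 1181 were shared, or 15.0% (14.2 to 15.8), against 14.9% of the whole list. The unshared peaks numbered 3435 after depilation and 6707 after imiquimod. Most matches were one to one. Among shared depilation peaks 10 met 2 imiquimod peaks, whereas 82 imiquimod peaks met 2 depilation peaks and 1 met 3.

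Within the score limit, the 2 injuries overlapped about as often as the E16.5 replicates among the 1000 best scoring peaks. Further down the lists they overlapped less often than the replicates did. For this comparison the chromosome, window and score limits were put on all 4 lists, and equal numbers of best scoring peaks were taken from each. The score limit came from the imiquimod list, so any E16.5 peaks above it were left out and the replicates were compared without them. Among the 1000 best, 21.4% (18.9 to 24.1) of the depilation peaks lay on an imiquimod peak, and 21.4% (18.9 to 24.1) of E16.5 replicate 1 peaks lay on a replicate 2 peak. Among the 2000 best the shares were 26.8% (24.8 to 28.7) and 31.6% (29.6 to 33.7). Among the 4690 best they were 23.5% (22.3 to 24.8) and 41.2% (39.8 to 42.6). The share between the injuries was thus highest at 2000 of the lengths taken, while that between the replicates went on rising. At 4690 peaks, depilation peaks lay on E16.5 replicate 1 peaks at 38.5% (37.1 to 39.9) and imiquimod peaks at 31.0% (29.7 to 32.4), both above the share between the injuries. On those of replicate 2 they lay at 25.4% (24.2 to 26.7) and 20.7% (19.6 to 21.9). The 4690 were all the kept depilation peaks, but only part of the other lists. The deposited E16.5 lists hold 11619 and 9685 peaks. E16.5 peaks were also wider. Those on shared depilation peaks had median widths of 804 bp in replicate 1 and 497.5 bp in replicate 2, against 269 bp for the shared depilation peaks. The depths of the libraries are unknown. The part of list length, width, depth and the score limit in these shares was not tested.

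**Figure D1:**
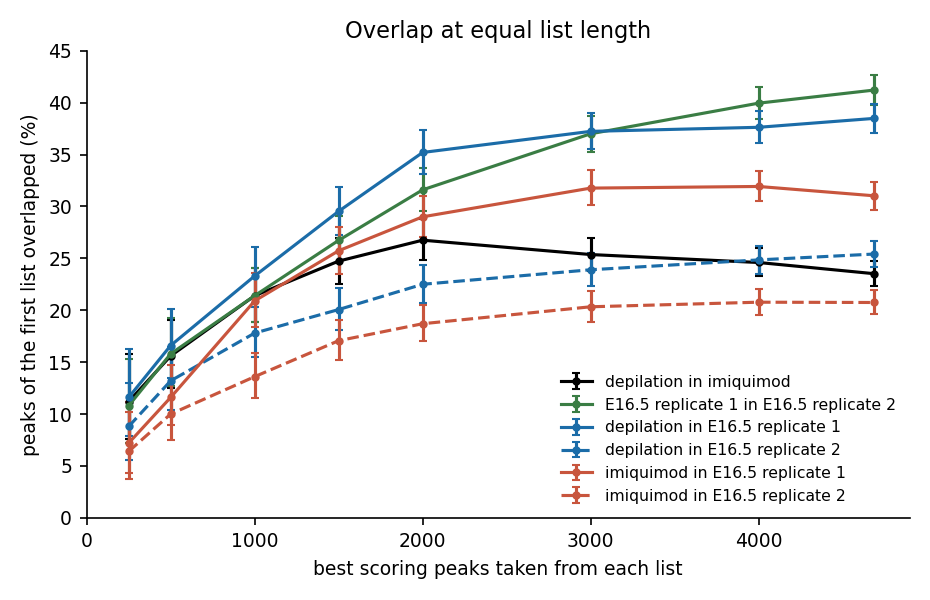
Share of the first list's peaks (y axis, %) overlapped by the second list when equal numbers of best scoring peaks (x axis) are taken from each, with 95% binomial intervals as bars. The injury pair (black) and the E16.5 replicates (green) both stand at 21.4% with 1000 peaks and part to 23.5% and 41.2% with 4690. At 4690 the kept depilation list is used whole and the other lists in part.

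Shared peaks ranked higher than unshared ones in both lists. The score-rank percentile of a peak is its rank within its own list, from the lowest score to 100 for the highest. The shared depilation peaks had a median percentile of 74.3 (quartiles 49.5 and 89.1) and the unshared ones 42.0 (21.2 and 65.4). The shared imiquimod peaks had a median of 79.4 (59.5 and 91.0) and the unshared ones 44.8 (22.2 and 69.1). The distributions overlapped widely, since shared and unshared peaks both reached down to the lowest and up to the highest percentile. In scores, the medians were 75.31 and 58.44 for shared and unshared depilation peaks, and 108.64 and 66 for shared and unshared imiquimod peaks.

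The share of shared peaks rose along the score, but the lower deciles of the depilation list lay level. From the lowest to the highest decile of the imiquimod list, the shared peaks went from 3.42% (2.27 to 4.94) to 41.4% (37.9 to 44.9), with no decile below the one before it. In the depilation list the lowest decile, with scores of 50.01 to 51.78, held 15.1% (12.0 to 18.7) shared peaks, and the next 9.38% (6.90 to 12.4). The first 5 deciles lay between 9.38% and 16.2%, and the highest reached 62.5% (57.9 to 66.9). In the highest decile of each list, then, 176 depilation peaks and 462 imiquimod peaks had no partner.

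**Figure D2:**
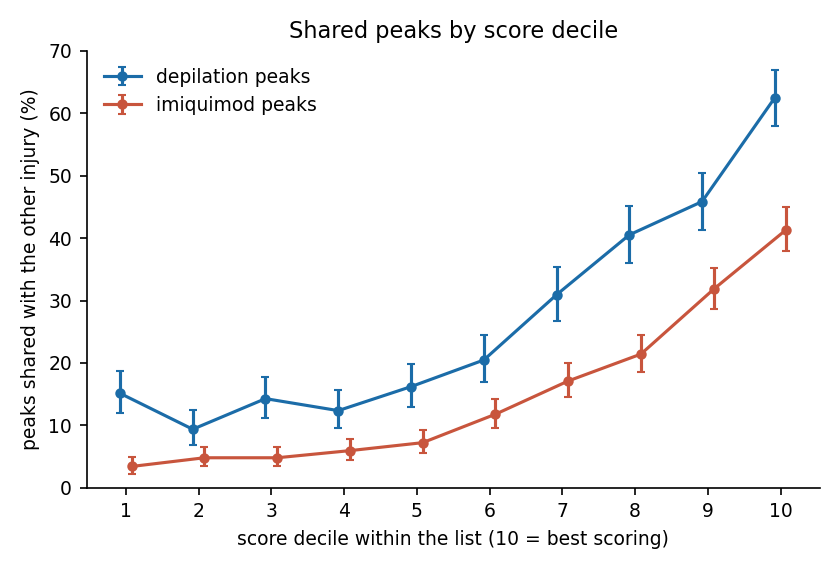
Percentage of peaks shared with the other injury (y axis) by score decile within each list (x axis, 10 = best scoring), for depilation (blue) and imiquimod (red) peaks, with 95% binomial intervals as bars. The share rises from 3.42% to 41.4% for imiquimod, and lies between 9.38% and 16.2% in the first 5 deciles before it reaches 62.5% for depilation.

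Although shared peaks scored well in each list, the scores of the 2 peaks of a pair were only weakly related. Across the 1265 overlapping pairs, the rank correlation of the depilation and imiquimod scores was 0.10 (Spearman's rho, across peaks, which are not independent replicates). That between the depilation score and the imiquimod tags per bp was 0.11, and that between the peak widths 0.15. Of the pairs, 394 (31.1%) were above the 75th percentile in both lists, 574 in one list and 297 in neither. Taken one list at a time, 616 pairs (48.7%) were above it in the depilation list and 746 (59.0%) in the imiquimod list. Whether both lists were called against the one adult input is not stated by the labels.

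The imiquimod list alone gives tags per peak, the reads that fell in it, and these were denser in shared peaks. Shared imiquimod peaks held a median of 47 tags (quartiles 36 and 61) and unshared ones 27 (22 and 37). Per bp of peak the medians were 0.121 (0.111 and 0.131) and 0.107 (0.100 and 0.117), a small gap between sets that overlapped. Of the shared peaks, 79.7% (77.3 to 81.9) lay above the list's median of 0.109 tags per bp, against 44.7% (43.5 to 45.9) of the unshared. From the sparsest to the densest decile in tags per bp, the shared peaks rose from 2.03% (1.16 to 3.27) to 36.3% (32.9 to 39.8).

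The authors' fold enrichment over the caller's background did not follow sharing in the same way. Its median was 6.51 in shared and 6.69 in unshared imiquimod peaks. The decile with the lowest enrichment held the most shared peaks, 21.7% (18.8 to 24.7), and the decile with the highest held 14.2% (11.8 to 16.8). Across imiquimod peaks the score went with width (rho = 0.74) and with tags per bp (rho = 0.61), and more weakly with fold enrichment (rho = 0.20). Width and fold enrichment were as weakly related, in the opposite direction (rho = -0.22). These correlations are across peaks of 1 library.

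Shared peaks were also wider. Their median width was 269 bp after depilation (quartiles 221 and 341), against 191 bp (162 and 235.5) for unshared peaks. After imiquimod it was 380 bp (313 and 478) against 260 bp (206 and 337). Of the narrowest imiquimod peaks, 73 to 215 bp wide, 20 of 1972 were shared, or 1.01% (0.621 to 1.56). Of the widest, 363 bp or more, 678 of 1972 were, or 34.4% (32.3 to 36.5). In the depilation list the same quartile groups gave 6.73% (5.37 to 8.32) and 54.4% (51.4 to 57.2). A wider peak can meet another more easily, so every peak was also set to 200 bp around its centre. This shortened wider peaks and lengthened narrower ones. Shared peaks were then still the wider ones by their widths as deposited. The medians were 272 against 192 bp after depilation and 376 against 261 bp after imiquimod.

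Tag density went with sharing within each width group above the narrowest. Among imiquimod peaks of 276 to 362 bp, the shared fraction rose from 6.64% (4.72 to 9.04) in the sparsest quartile group of tags per bp to 31.1% (26.8 to 35.5) in the densest. Among those of 363 bp or more it rose from 8.33% (4.93 to 13.0) to 46.5% (43.4 to 49.7), but width was not held there, since the sparsest of these peaks reached 676 bp and the densest 1725 bp. Among the narrowest peaks, up to 215 bp, the share was 0.641%, 1.32%, 0.735% and 1.41% from the sparsest to the densest group, with no gradient beyond the counting intervals. Fold enrichment had no single direction over the width groups. From its lowest to its highest quartile group the share fell from 11.5% (8.69 to 14.9) to 3.95% (2.46 to 5.97) among peaks of 216 to 276 bp, and rose from 16.3% (13.9 to 19.0) to 23.8% (19.3 to 28.9) among those of 276 to 362 bp. In the widest peaks it was 36.3% (32.2 to 40.5) and 37.4% (33.0 to 42.0), and in the narrowest 0.606% and 1.21%.

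**Figure D3:**
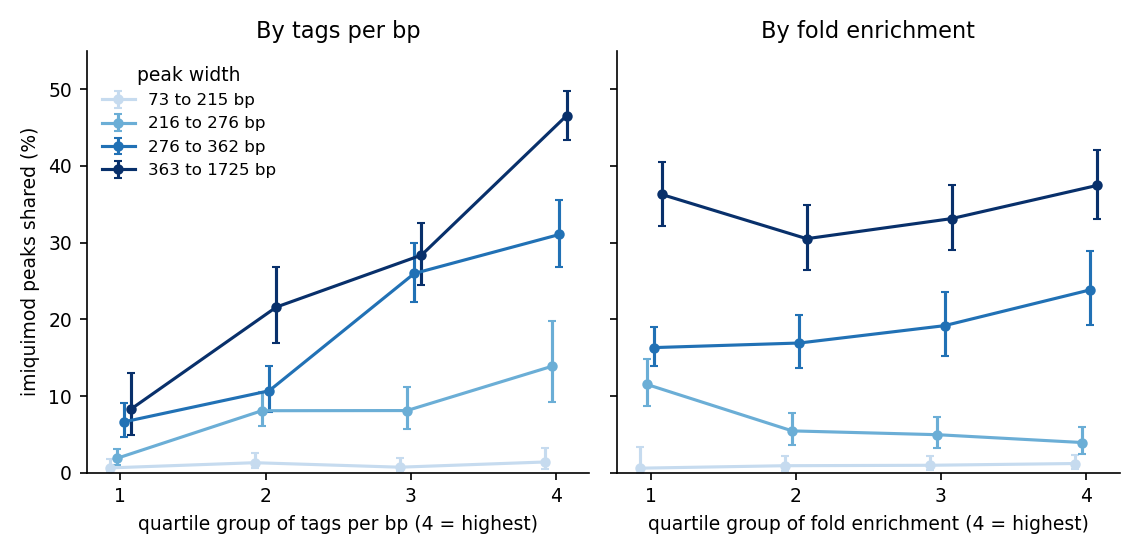
Percentage of imiquimod peaks shared with depilation (y axis) by quartile group of tags per bp (left) and of fold enrichment (right), with 1 line for each quartile group of peak width and 95% binomial intervals as bars. In the widest peaks the share rises from 8.33% to 46.5% with tags per bp, and is 36.3% and 37.4% in the lowest and highest group of fold enrichment.

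Within the shared pairs, most centres lay within 100 bp of each other, a distance that the overlap itself limits. The offset of the imiquimod centre from the depilation centre had a median of -4 bp (quartiles -75.5 and 62.5), and in 818 of 1265 pairs, or 64.7%, it was at most 100 bp. The imiquimod summit, the position of its highest tag pile, fell inside the depilation peak in 925 pairs, or 73.1% (70.6 to 75.5). The median overlap was 237 bp, which covered 92.6% of the depilation peak and 62.1% of the imiquimod peak. The imiquimod peak was the wider in 1012 pairs (80%), and 498 depilation peaks lay wholly inside their partner, against 73 imiquimod peaks.

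Unshared peaks mostly lay far from any peak of the other injury, with a small group close by. A gap is the difference between the facing edge positions of 2 peaks. The gap from an unshared depilation peak to the nearest imiquimod peak had a median of 96142 bp (quartiles 38163.5 and 202510), and 1676 of 3435, or 48.8% (47.1 to 50.5), were more than 100000 bp away. From an unshared imiquimod peak to the nearest depilation peak the median was 190656 bp (73718 and 404826), and 4543 of 6707, or 67.7% (66.6 to 68.9), were more than 100000 bp away. The imiquimod list is the longer, which by itself shortens the gaps measured towards it. Within 1000 bp lay 189 unshared depilation peaks, or 5.50% (4.76 to 6.32), about as many as the 166 between 1001 and 10000 bp. For imiquimod the counts were 177, or 2.64% (2.27 to 3.05), and 191. Where peaks with centres within 500 bp counted as shared, 2.73% of unshared depilation and 1.40% of unshared imiquimod peaks were left within 1000 bp. For scale, depilation peaks off E16.5 replicates 1 and 2 had median gaps of 86652 and 79558 bp to them, with 2.97% and 7.34% within 1000 bp. Imiquimod peaks off them had median gaps of 98443 and 107566 bp, with 1.08% and 2.59% within 1000 bp.

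**Figure D4:**
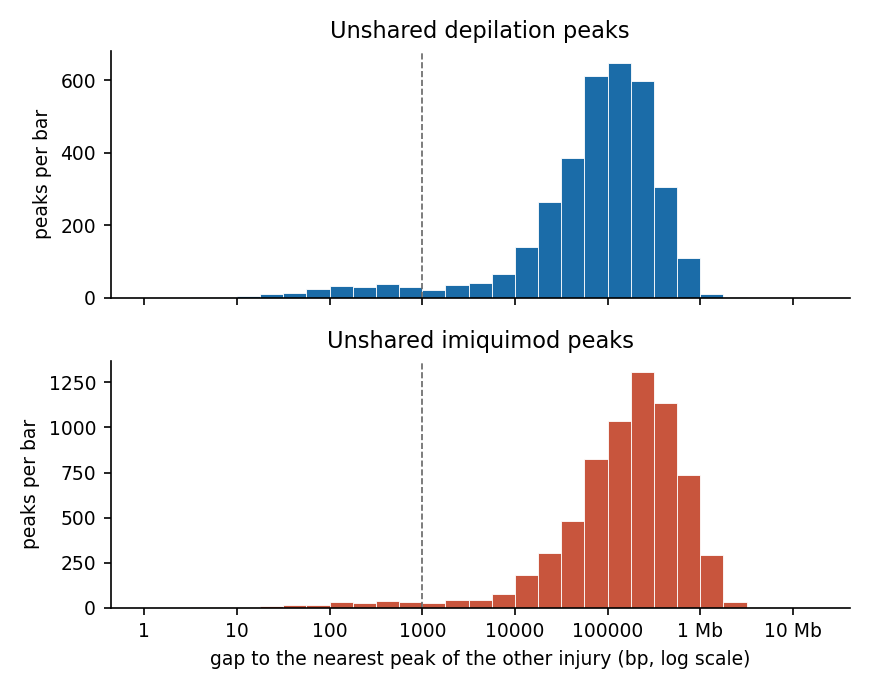
Number of unshared peaks (y axis) by the gap to the nearest peak of the other injury (x axis, bp, log scale, 4 bars for each factor of 10), for depilation (top) and imiquimod (bottom). The medians are 96142 and 190656 bp, and 189 and 177 peaks lie left of the dashed line at 1000 bp.

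The near misses carried E16.5 peaks more often than the other unshared peaks did. Of the 189 unshared depilation peaks within 1000 bp of an imiquimod peak, 155 carried a peak of at least one E16.5 replicate, or 82.0% (75.8 to 87.2). Of those 1001 to 10000 bp away, 33.1% (26.0 to 40.8) did, and of those beyond 100000 bp 36.3% (34.0 to 38.7). For unshared imiquimod peaks the same classes gave 83.6% (77.3 to 88.7), 25.1% (19.1 to 31.9) and 14.4% (13.4 to 15.5). In 113 of the 189 near misses, or 59.8% (52.4 to 66.8), a single E16.5 replicate 1 peak overlapped both the depilation and the nearest imiquimod peak. A single replicate 2 peak did so in 44, or 23.3% (17.5 to 30.0). Among the shared pairs a single peak overlapped both in 91.4% (89.7 to 92.9) for replicate 1 and 60.6% (57.8 to 63.3) for replicate 2. The embryo peaks are wide enough to span such gaps: those on unshared depilation peaks had median widths of 673 bp in replicate 1 and 395.5 bp in replicate 2, and the part of width in these shares was not tested. The near misses ranked higher than the other unshared peaks, with median percentiles of 55.4 for depilation and 64.0 for imiquimod. The part of this higher rank in the E16.5 shares was not tested.

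Nearly every peak that the injuries shared was also found in embryonic skin. Of all depilation members 54.2%, and of all imiquimod members 29.6%, carried a peak of at least one E16.5 replicate. Among shared peaks this was 94.7% (93.3 to 95.8) for depilation and 94.4% (92.9 to 95.7) for imiquimod. Among unshared peaks it was 39.4% (37.7 to 41.0) and 18.2% (17.3 to 19.1). Thus 67 shared depilation peaks and 66 shared imiquimod peaks had no E16.5 peak, against 2082 and 5487 unshared ones. Each E16.5 replicate gave the same order. For depilation, replicate 1 was found at 91.4% of shared and 36.4% of unshared peaks, and replicate 2 at 61.0% and 23.8%. For imiquimod the values were 91.0% and 17.0% in replicate 1, and 62.6% and 11.1% in replicate 2. A peak of both replicates, the stricter measure, was carried by 57.8% (55 to 60.5) of shared and 20.8% (19.5 to 22.2) of unshared depilation peaks, against 30.7% of all. For imiquimod it was 59.2% (56.3 to 62.0) and 9.90% (9.20 to 10.6), against 17.3% of all. When all 4 lists were limited to their 1000 best peaks, a peak of at least one replicate was carried by 46.3% of shared and 30.3% of unshared depilation peaks, and by 46.0% and 23.2% of imiquimod peaks. Here the E16.5 lists were cut as deposited, without the chromosome, window and score limits, unlike in the comparison at equal list length.

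The difference between shared and unshared peaks in E16.5 was present in each score decile. In the lowest decile of the depilation list, 69 of 71 shared peaks, or 97.2% (90.2 to 99.7), and 110 of 398 unshared peaks, or 27.6% (23.3 to 32.3), carried an E16.5 peak. In the highest decile it was 96.9% (94.2 to 98.6) and 86.4% (80.4 to 91.1). For imiquimod the lowest decile gave 77.8% (57.7 to 91.4), from 27 shared peaks, and 4.33% (3.0 to 6.03). Its highest decile gave 97.2% (94.8 to 98.7) and 48.3% (43.6 to 52.9). By this measure the difference was smallest in the highest decile of each list. By a peak of both replicates this did not hold for imiquimod, where decile 8 gave 55% and 19.7% and the highest decile 68.7% and 28.1%. The best scoring unshared peaks of the 2 injuries therefore differed. Those of depilation had an E16.5 peak in 152 of 176 cases and those of imiquimod in 223 of 462, and this difference compares 2 libraries, not 2 conditions.

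**Figure D5:**
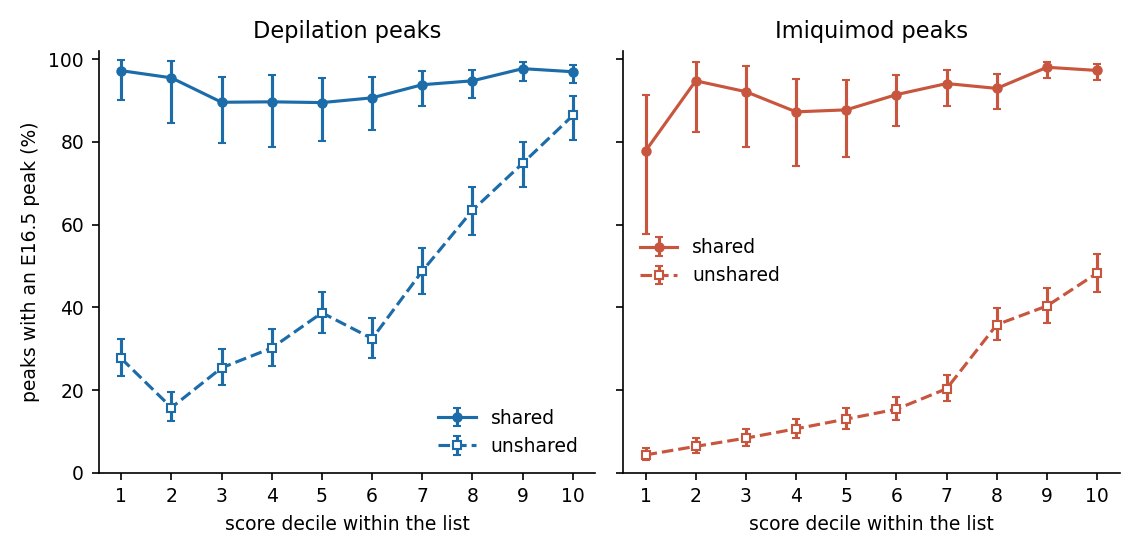
Percentage of depilation (left) and imiquimod (right) peaks that carry a peak of at least one E16.5 replicate (y axis), by score decile (x axis), for shared (filled) and unshared (open) peaks, with 95% binomial intervals as bars. Shared peaks lie at 77.8% or above in each decile, and unshared peaks rise to 86.4% for depilation and 48.3% for imiquimod.

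Width moved with the E16.5 share as well. Among the narrowest quartile group of depilation peaks, up to 170 bp, 82.3% (72.1 to 90.0) of shared and 16.3% (14.1 to 18.6) of unshared peaks carried an E16.5 peak. Among the widest, 267 bp or more, it was 97.2% (95.6 to 98.3) and 86.7% (83.6 to 89.5). For imiquimod the narrowest group held 20 shared peaks, of which 10 had an E16.5 peak, against 1.69% (1.17 to 2.37) of the unshared. In its widest group the shares were 97.6% (96.2 to 98.6) and 40.1% (37.4 to 42.8). Unshared imiquimod peaks were wider than unshared depilation peaks and carried E16.5 peaks less often. Widths come from each list's own peak calling, and the part of width in this difference was not tested. With every peak of all 4 lists set to 200 bp, 84.6% of shared and 35.4% of unshared depilation peaks had an E16.5 peak. For imiquimod peaks it was 86.9% and 17.2%.

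The E16.5 peaks under shared regions also ranked higher in the embryo lists. In replicate 1, the 1054 peaks that lay on shared depilation peaks had a median percentile of 84.4 (83.2 to 85.4, interval of the median), and the 1184 on unshared ones 74.8 (73.0 to 77.1). On unshared imiquimod peaks it was 77.4 (76.1 to 79.1). In replicate 2 the medians were 76.0 (73.1 to 78.4) and 68.3 (66.3 to 72.1) on shared and unshared depilation peaks. On imiquimod peaks they were 75 (72.3 to 77.2) and 70.9 (67.4 to 73.4), with intervals that overlapped. The E16.5 peaks on shared regions were also wider. On shared and unshared depilation peaks their median widths were 804 and 673 bp in replicate 1, and 497.5 and 395.5 bp in replicate 2. On imiquimod peaks they were 804 and 731 bp, and 489 and 420 bp. The part of width in these ranks was not tested.

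Sharing differed between chromosomes. For depilation it ran from 19.0% (13.2 to 26.0) on chromosome 16 to 36.6% (28.7 to 45.1) on chromosome 19. For imiquimod the same chromosomes stood at the ends, with 10.1% (6.94 to 14.0) and 20.9% (15.7 to 27.0). Chromosomes 4, 5, 9, 11, 12 and 17 were also above the whole list in both directions, and 1, 2, 3, 6, 10, 13, 14 and 18 were below it. The intervals of 15 of 19 chromosomes for depilation and of 14 for imiquimod held the value of the whole list. In the spread of the peaks over the autosomes, chromosome 11 differed most, with 6.55% of depilation and 5.22% of imiquimod peaks, a ratio of 1.25, and the ratio was lowest on chromosome 16 at 0.863.

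The best scoring shared pairs were named by the mean of their percentiles, so their high scores are how they were chosen. The first lay on chromosome 4, at 59202182 to 59202588 after depilation (score 215.21) and 59201965 to 59202646 after imiquimod (score 241.69, 98 tags, 0.144 tags per bp, fold enrichment 7.22). The imiquimod peak contained the depilation peak whole. The second was also on chromosome 4, at 101092567 to 101093145 (188.97) and 101092529 to 101092937 (230.7, 66 tags, 0.161 tags per bp, fold enrichment 12.44). The third lay near the first, at 59015943 to 59016435 (162.23) and 59015960 to 59016562 (244.2, 83 tags). Of the 10 best pairs, 4 were on chromosome 4, the other being at 131477662 to 131478080 after depilation (154.84), and the rest lay on chromosomes 1, 2, 5, 7 and 15. All 10 imiquimod peaks carried a peak of E16.5 replicate 1 and 9 a peak of replicate 2. Among all shared imiquimod peaks in the highest score decile, the shares were 96.0% and 69.9%. Across the 10 the tags per bp ran from 0.112 to 0.205 and the FDR from 6.4% to 9.77%, which is high for the list.

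The false discovery rate (FDR) that the authors list for imiquimod peaks was high at both ends of the score. In the lowest score decile its median was 9.61%, in the ninth 3.22% and in the highest 5.3%, and it reached 10% at the highest score of the list. A limit of 5% on the FDR therefore removed peaks at both ends, keeping 290 of 788 peaks in the highest decile and 0 of 789 in the lowest. With that limit the shared depilation peaks fell to 17.2%, and the shared imiquimod peaks rose to 20.9% of the 3651 kept.

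The 5 best scoring unshared depilation peaks all carried an E16.5 peak, as did 86.4% (80.4 to 91.1) of all unshared depilation peaks in the highest score decile. On chromosome 5 this was the peak from 88993898 to 88994593, scoring 230.88. Chromosome 8 had one from 18595037 to 18595472 (229.25), chromosome 11 from 21138756 to 21139319 (224.57), chromosome 6 from 145198428 to 145199150 (212.1) and chromosome 10 from 83996347 to 83996809 (211.83). The nearest imiquimod peaks were 109689, 418092, 87466, 82555 and 26622 bp away, in that order, against the median of 96142 bp for all unshared depilation peaks. All 5 carried a peak of E16.5 replicate 1, and 4 of them, the chromosome 11 peak being the exception, a peak of both replicates. In that decile 81.8% of the unshared depilation peaks carried a peak of replicate 1 and 52.3% a peak of both.

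Of the 5 best scoring unshared imiquimod peaks, 2 carried an E16.5 peak, against 48.3% (43.6 to 52.9) of all unshared imiquimod peaks in the highest score decile. The peaks of chromosome 6 from 16786275 to 16787002 (score 249.45, 86 tags), of chromosome 2 from 63936189 to 63936687 (247.61, 72 tags) and of chromosome 11 from 6599577 to 6600256 (244.63, 101 tags) had no peak in either E16.5 replicate. Those at 126846357 to 126846858 on chromosome 4 (247.44, 78 tags) and 91299994 to 91300720 on chromosome 7 (247.27, 97 tags) had one in both. Their gaps to the nearest depilation peak ran from 18969 bp, for the chromosome 6 peak, to 1119206 bp, for the chromosome 2 peak. The FDR of the 5 peaks ran from 9.54% to 10%, the highest value in the list. Its median was 5.3% for all imiquimod peaks in the highest score decile. Each held between 0.118 and 0.155 tags per bp, above the list's median of 0.109. Score and tags per bp go together, so this follows in part from how the peaks were chosen. With both injury lists limited to their 1000 best, the median of unshared imiquimod peaks was 0.129 tags per bp.

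At the border between shared and unshared, a few bp decided the class. The shortest gaps, of 4 to 8 bp, included a depilation peak at 95653352 to 95653561 on chromosome 13 (57.08) beside an imiquimod peak that ended at 95653348 (104.55), both on peaks of both E16.5 replicates. Another was at 70390568 to 70390845 on chromosome 9 (50.8), with an imiquimod peak from 70390852 to 70391218 (115.33). Of these 5 pairs 4 lay on peaks of both E16.5 replicates, and the fifth, on chromosome 15, on none. Among all unshared depilation peaks with a gap of at most 100 bp, 50.8% (37.5 to 64.1) carried a peak of both. The shortest overlaps, of 2 to 8 bp, were led by 134397321 to 134397592 on chromosome 7 (50.8) and its partner from 134397591 to 134397881 (81.81). All 5 of these had a peak of E16.5 replicate 1, as did 91.4% of all shared depilation peaks.

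The score limit on depilation peaks removed 19 autosomal peaks outside the windows, of which 4 were overlapped by an imiquimod peak, or 21.1% (6.05 to 45.6). Just inside the limit stood peaks at 25257033 to 25257433 on chromosome 12 (247, shared), and those on chromosomes 5 and 8 given above (230.88 and 229.25, both unshared). Just outside it stood peaks at 119774983 to 119775384 on chromosome 11 (253.36, unshared), 141717330 to 141717983 on chromosome 5 (255.22, on 2 imiquimod peaks) and 36368071 to 36368675 on chromosome 17 (266.36, shared). Shared and unshared peaks stood on both sides of it.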

How the data were processed

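Peak lists of 4 Grhl3 ChIP-seq libraries were used, as deposited. Bowtie 0.12.7, bedtools 2.11.2 and build mm9 are named in the submitters' processing notes. Settings and control of the peak caller are not stated there. The authors deposited a peak score for each peak, which is 50.01 or more in the lists with MACS in their peak names. The imiquimod list, per the file headers, gives the authors' tag counts per peak, summit, fold enrichment (a ratio to background) and FDR in percent. Its score column has lost its header and was read as the same kind of score, which no other source checked. Read totals were not used, so depth is unknown.

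BED starts were raised by 1 bp, and imiquimod positions were left as they were, being 1-based by their length column. Overlap, gaps, percentiles, deciles and quartile groups were computed in Python 3.11.15 (numpy 2.4.6, pandas 2.3.3, scipy 1.17.1), with ties in groups broken by position. The code was tested on 20 simulated pairs of lists, and its shared counts, 1255 and 1181, equal those of bedtools 2.31.1. Left-out peaks are 71 and 25 on X or Y and 40 and 61 in the windows, for depilation and imiquimod. The members and measures were chosen with earlier results of these data known. Named regions are the 10 best pairs, the 5 best unshared peaks of each list, the 5 shortest gaps and overlaps, and 3 peaks on each side of the score limit. Planned motif and gene-start analyses needed an mm9 genome and were not run.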

Additional observations from a re-analysis of the deposited data

How the results depend on the processing

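The share of depilation peaks found after imiquimod was 24.9% when the overlap had to cover 50% of the shorter peak. It was 28.8% with centres within 500 bp, 23.9% with peaks set to 200 bp and 33.9% with the better scoring 50% of each list. With the 1000 best it was 21.4%, and with an imiquimod FDR of at most 5% it was 17.2%. The share of imiquimod peaks found after depilation was 14.1%, 16.0%, 13.9%, 19.3%, 21.1% and 20.9% in the same order. Unshared peaks within 1 kb of the other injury were 7.89%, 2.73% and 8.83% for depilation in the first 3 settings, 2.04% with the 1000 best and 3.78% with the FDR limit, and 3.62%, 1.40%, 3.73%, 1.39% and 3.77% for imiquimod.

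In score, width and imiquimod tags per bp, the share of shared peaks above their list's median was over 50% in every setting run. Its interval held 50% in 1 case, imiquimod width with the 1000 best. With the better scoring 50% they were 66.4% in score and 70.2% in width for depilation, and 70.9% in score, 71.8% in width and 67.5% in tags per bp for imiquimod. With the 1000 best they were 60.7% and 63.6%, and 60.7%, 54.0% (47.1 to 60.9) and 67.8%. Median widths of shared and unshared imiquimod peaks were then 489 bp (465 to 516) and 473 bp (464 to 482). With the FDR limit the imiquimod values were 67.1%, 68.8% and 67.5%. In fold enrichment, taken in the main setting only, 46.0% (43.1 to 48.9) of shared imiquimod peaks were above the list's median.

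A peak of both E16.5 replicates was found at 53.5% of shared depilation peaks with 50% of the shorter peak and 60.7% with centres within 500 bp. With peaks set to 200 bp the shares for shared and unshared peaks were 42.5% and 16.1% (depilation) and 45.1% and 7.76% (imiquimod). With the better scoring 50% of every list they were 46.5% and 22.9%, and 46.7% and 14.0%. With the 1000 best they were 13.6% and 6.87%, and 13.3% and 4.82%. In both of these settings the E16.5 lists were cut without the chromosome, window and score limits. With the FDR limit the unshared shares were 25.2% and 16.0%. Without one E16.5 replicate, the values were 61.0% to 91.4% (shared) and 23.8% to 36.4% (unshared) for depilation, and 62.6% to 91.0% and 11.1% to 17.0% for imiquimod.

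Keeping the windows, chromosomes X and Y, or the depilation peaks above the score limit moved none of these values out of its interval. Nor did leaving out the densest 200 kb window of a chromosome where it held 8 or more peaks of 1 list, an alternative chosen after seeing the data. The order of shared above unshared peaks in E16.5 was kept in each setting. Values moved both up and down with the shorter lists and with the FDR limit, and the cause was not tested. No paired analysis was possible because each injury has 1 library. Depth limits what unshared means: a peak below threshold in one list counts as absent from it. The imiquimod FDR reached 10%, the highest in that list, in both the lowest and the highest score decile. Whether peaks with a higher FDR were left off the list is not stated, and any such peak, also a high scoring one, would count as absent.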

Other observations

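The window left out on chromosome 2, from 77.71 to 77.87 Mb, held 52 imiquimod peaks and 0 depilation peaks, with 1 peak in each E16.5 replicate. Its imiquimod peaks had a median of 74.5 tags and 0.154 tags per bp, above the medians of the kept peaks, and a median fold enrichment of 5.93, below theirs. The window left out on chromosome 9 held 40 depilation, 9 imiquimod and 17 E16.5 replicate 2 peaks, and none of replicate 1.

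Among the kept peaks, the densest window of at most 200 kb was taken on each chromosome for each injury. Of these windows, 3 held 8 or more peaks of that injury. Further windows on the same chromosome were not searched for. On chromosome 7, 15 imiquimod peaks lay between 38804266 and 38985242, with 2 depilation peaks, and 1 of the 15 was shared. The E16.5 replicates had 2 and 1 peaks there. On chromosome 11, 10 depilation peaks lay between 3035506 and 3190106, with 0 imiquimod peaks and 2 peaks in each E16.5 replicate. On chromosome 2, 9 depilation peaks lay between 179710021 and 179906632, with 2 imiquimod peaks, of which 1 was shared, and with 8 and 6 peaks in the E16.5 replicates. The first 2 of these windows were thus dense in one adult library and sparse in the 3 others, and the last was dense in E16.5 too. These windows were found after the data were seen.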
